A study of Mus musculus with 8 samples.

Results

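The 37 genes described here encode fibrillar, basement membrane and other collagens, the enzymes and the chaperone that modify, fold and crosslink them, and the glycoproteins and proteoglycans that bind collagen fibrils. They were chosen by name, and 35 of them were among the 18193 genes that the array annotation named through a probe set of their own. Each gene was read from the brightest probe set that named it alone, by the mean of log2(signal + 26) over all arrays. A probe set is the group of short probes that reads a transcript on an Affymetrix array, and its signal here is a linear intensity. Loxl2 and Fbn1 were not named by the annotation and were not analysed here. Col4a3 and Col4a4 lay in the dimmer part of the array that was set aside before testing, which left 33 tested genes.

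The arrays held subcutaneous fat of 8 male mice described as diabetic, which were gavaged on 5 days per week for 10 weeks. The labels give an age of 8 weeks without saying whether this was at the start of the gavage. The 4 placebo mice (numbers 6, 8, 10 and 14) received water. The 4 NBC mice (numbers 5, 9, 11 and 13) were given NBC, short for niacin-bound chromium, in which chromium is complexed by nicotinic acid, at a dose of 10 mg per kg body weight. The sources used here give neither the strain nor the cause of the diabetes, and they name no scan batch. RNA of each mouse was read on an Affymetrix mouse expression array of its own, and after trimming 2% from both ends all 8 arrays shared a mean signal of 1500.01, with medians of 285.5 to 329.6.

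Collagens are made as chains that wind into a helix inside the endoplasmic reticulum, where prolyl and lysyl hydroxylases modify them and the chaperone encoded by Serpinh1 holds the helix together. After secretion, lysyl oxidases crosslink the chains and small proteoglycans coat the fibrils. In fat, fibrillar collagens and type VI collagen form the mesh between adipocytes and around vessels, and each adipocyte is wrapped in a basement membrane of type IV collagen and laminin. Fibroblasts and adipose progenitors are the main source of the fibrillar chains, while endothelial cells and adipocytes contribute to the basement membrane.

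Type I and type VI collagen transcripts read higher in NBC than in placebo mice, by 0.26 (Col6a2) to 0.43 (Col6a3) on the log2 scale. For 4 of these 5 genes every NBC mouse lay above every placebo mouse, beside 1.70% of all tested genes. Differences of this size were not particular to these chains. Among others, Fn1 (0.44), Col12a1 (0.42), Loxl3 (0.35), Col8a1 (0.34) and Bgn (0.31) lay in this range or above, each with overlap. The type IV chains Col4a1 (0.079) and Col4a2 (0.0079) differed less, Col4a5 read lower in NBC (-0.20), and the hydroxylating, crosslinking and folding genes had differences on both sides of 0. None of these differences passed the test over all probe sets. With limma's moderated test and Benjamini-Hochberg adjustment, 0 of 22519 probe sets (0%) and 0 of the 33 genes had an adjusted p under 0.05, and the smallest adjusted p among the genes was 0.730 (Col6a3). An unadjusted p under 0.05 was reached by 6.22% of probe sets (3.28% higher and 2.94% lower in NBC) and by 5.44% of all tested genes. Among the 33 genes there were 4 of this kind (Col1a1, Col1a2, Col6a1 and Col6a3), all higher in NBC, which is 12.1% beside 2.73% of all 11662 tested genes in that direction, and 0 were lower, beside 2.71%. The groups did not overlap for 5 genes (Col1a1, Col1a2, Col5a2, Col6a2 and Col6a3), all higher in NBC, which is 15.2% beside 1.70% of all genes, and for 0 genes in the lower direction, beside 2.23%.

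Of the 33 log2 differences (NBC minus placebo), 27 lay above 0, or 81.8% beside 48.5% of all tested genes, with a median of 0.16 beside -0.0064. The genes share mice and cells of origin, so these shares describe the list and are not a test of it. In bulk tissue, more matrix-producing cells and more transcript per cell cannot be told apart. The plot of the differences by subgroup shows that the intervals of most genes cross 0.

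**Figure D1:**
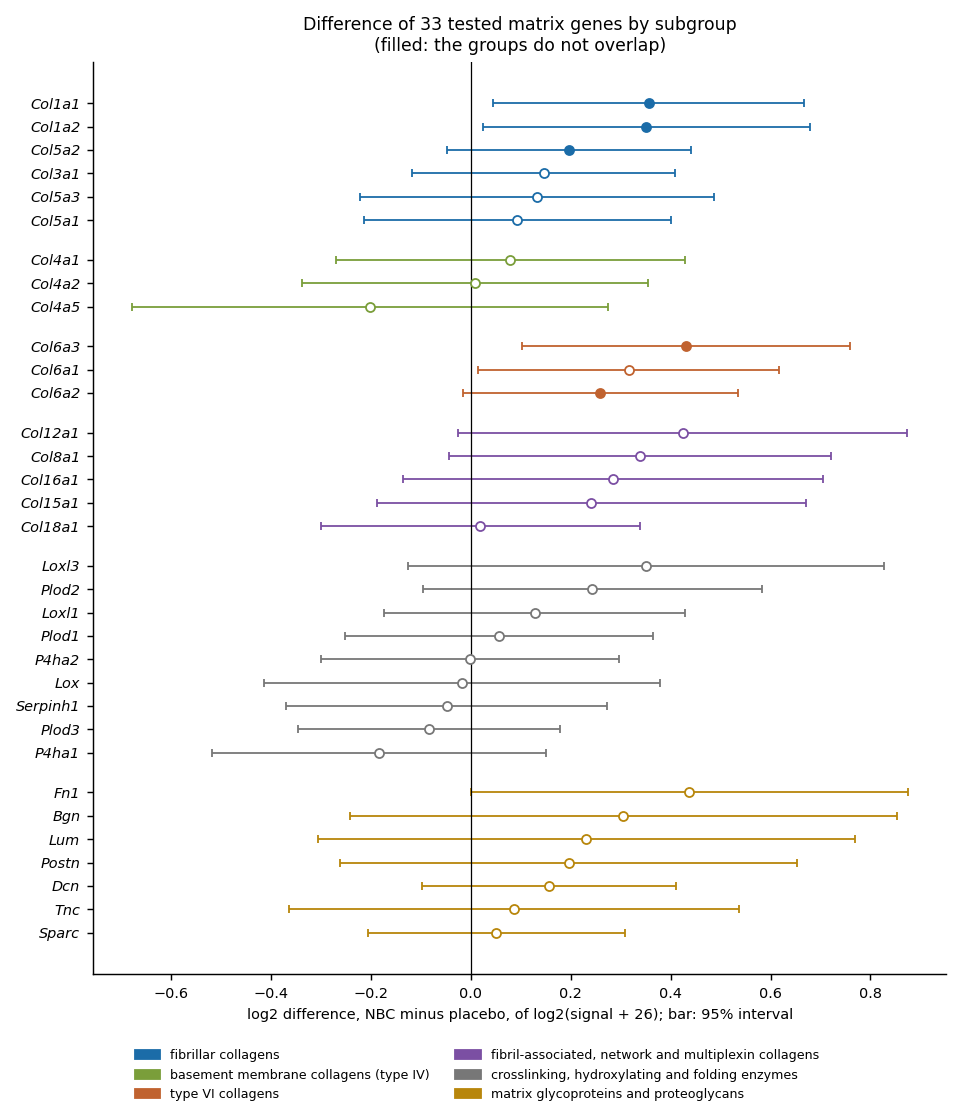
Log2 difference between NBC and placebo mice (x axis, on the log2(signal + 26) scale) for the 33 tested genes (y axis), coloured by subgroup, with 95% intervals of the limma fit and filled points where the 4 NBC and 4 placebo values do not overlap. All 5 filled points are collagen genes, and of the 4 genes whose interval lies above 0 (Col1a1, Col1a2, Col6a1 and Col6a3) the highest difference is that of Col6a3 (0.43).

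Type I collagen, the main fibrillar collagen of connective tissue, is built from the chains encoded by Col1a1 and Col1a2. Col1a1 (probe set 1423669_at) read 20326, 23623, 23882 and 22067 in placebo mice 6, 8, 10 and 14, while NBC mice 5, 9, 11 and 13 read 25826.5, 27758, 26407 and 35859. The lowest NBC mouse lay above the highest placebo mouse, and NBC mouse 13 stood well above the other NBC mice. Placebo mice averaged 22474 ± 1641 (SD, n = 4), NBC mice averaged 28963 ± 4668 (SD, n = 4), and the log2 difference was 0.36 (standard error, SE, 0.14; limma adjusted p = 0.778).

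Col1a2 (1450857_a_at) gave 36222, 34871, 33850 and 32403 in placebo mice 6, 8, 10 and 14, while NBC mice 5, 9, 11 and 13 read 38867, 44826, 37764 and 55840. The order of the NBC mice was similar, with mouse 13 again the highest. The log2 difference was 0.35 (SE 0.14), and means were 34337 ± 1614 and 44324 ± 8280 (SD, n = 4 each). Set to a mean of 0 over the 8 mice, the log2 ratio of Col1a1 to Col1a2 was 0.0041 higher in NBC mice, against SDs of 0.149 among placebo and 0.075 among NBC mice (n = 4 each). Without NBC mouse 13 the differences were 0.25 (Col1a1) and 0.23 (Col1a2).

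The start of Col1a2 is shown because its transcript was among those with separated groups and because the start of Col1a1 was not in the table used. The sequence comes from RefSeq (build GRCm38.p6, chr6:4505368-4505667, plus strand), runs from 250 bases before to 50 bases after the annotated start, and has CCAAT boxes in capitals, in either orientation (CCAAT or ATTGG).
Col1a2: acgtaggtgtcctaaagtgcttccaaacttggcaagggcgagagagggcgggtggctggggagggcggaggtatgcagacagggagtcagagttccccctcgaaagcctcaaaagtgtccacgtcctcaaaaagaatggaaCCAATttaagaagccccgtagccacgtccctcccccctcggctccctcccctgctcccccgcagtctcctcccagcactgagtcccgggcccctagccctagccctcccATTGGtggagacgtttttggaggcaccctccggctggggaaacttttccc
One CCAAT begins 109 bases before the start and one ATTGG at the start itself. On either strand this motif occurred in 37.4% of all 32851 such windows and in 31.0% of the 29 windows that belong to 25 of the 37 genes. The GC box GGGCGG, searched on either strand, occurred 2 times in the Col1a2 window, in 65.5% of the windows of these genes and in 35.7% of all windows. The letters TATAA were not found in the Col1a2 window on either strand and occurred in 20.7% of the windows of these genes and 24.9% of all windows. These are matches of letters and say nothing about binding.

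The remaining fibrillar chains differed less by their brightest probe sets, while dimmer ones of Col3a1 and Col5a2 came close to the type I values. Col3a1, whose product joins type I fibrils in soft tissues, read 85610, 84376, 86496 and 72620 in placebo mice 6, 8, 10 and 14, while NBC mice 5, 9, 11 and 13 read 86433, 96147, 83534 and 97879. The groups overlapped and the log2 difference was 0.15 (SE 0.12). This probe set (1427883_a_at) was among the brightest of the array, with 42 of all probe sets brighter. A dimmer one of the same gene, 1427884_at, read 17223, 18446, 17108 and 16392 in placebo mice 6, 8, 10 and 14, while NBC mice 5, 9, 11 and 13 read 19395, 22603, 21674 and 24617. There the groups did not overlap and the log2 difference was 0.35 (SE 0.12, unadjusted p = 0.0146, limma adjusted p = 0.730).

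Type V collagen sits inside type I fibrils and limits their width. Its chain Col5a2 (1422437_at) read 26021, 25064.5, 25916 and 23083 in placebo mice 6, 8, 10 and 14, while NBC mice 5, 9, 11 and 13 read 26700, 31166, 27830 and 29084. The groups were separated only narrowly, by NBC mouse 5 and placebo mouse 6, and the log2 difference was 0.20 (SE 0.11). Its other kept probe set gave 0.34 (SE 0.15) with overlap. Col5a1 (0.093, SE 0.14) and Col5a3 (0.13, SE 0.16) overlapped widely, with NBC means 1.06 and 1.10 times those of placebo mice.

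**Figure D2:**
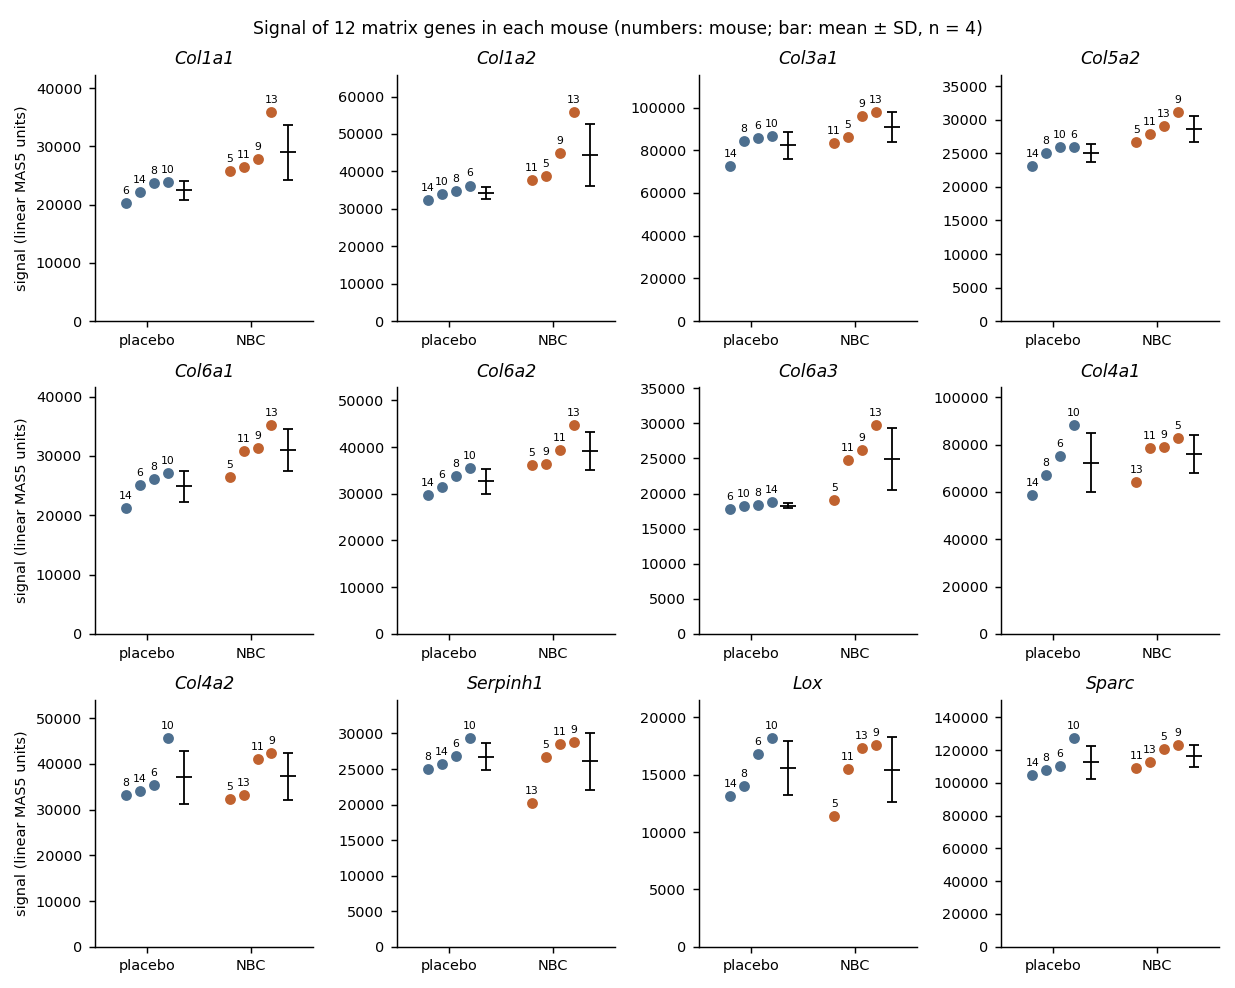
Signal (y axis, linear MAS5 units from 0) of 12 matrix genes in the placebo and NBC mice (x axis), 1 point per mouse with its number and the mean ± SD of each group (n = 4). Col1a1, Col1a2, Col5a2, Col6a2 and Col6a3 show no overlap between the groups, and NBC mouse 13 is the highest point for type I and type VI chains but the lowest for Serpinh1 (20251).

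Type VI collagen forms beaded filaments around adipocytes and is assembled from the chains of Col6a1, Col6a2 and Col6a3. Col6a3 (1424131_at) read 17820, 18379, 18154 and 18758.5 in placebo mice 6, 8, 10 and 14, while NBC mice 5, 9, 11 and 13 read 19130.5, 26164, 24735 and 29762. The placebo mice were close together, and NBC mouse 5 lay just above them while the other NBC mice stood clearly higher. The means were 18278 ± 394 (SD, n = 4) and 24948 ± 4418 (SD, n = 4), and the log2 difference of 0.43 (SE 0.15, unadjusted p = 0.0159) ranked 207 of the 11662 genes by p.

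Col6a1 (1448590_at) read 25061, 26035, 27108 and 21248 in placebo mice 6, 8, 10 and 14, while NBC mice 5, 9, 11 and 13 read 26480, 31401, 30852 and 35217. NBC mouse 5 lay below placebo mouse 10, so the groups overlapped, with a log2 difference of 0.32 (SE 0.13). Col6a2 (1452250_a_at) read 31542, 33781, 35597 and 29658 in placebo mice 6, 8, 10 and 14, while NBC mice 5, 9, 11 and 13 read 36085, 36281, 39432 and 44727. The groups were separate, the log2 difference was 0.26 (SE 0.12), and its second probe set, 1426947_x_at, gave 0.23 (SE 0.15) with overlap. NBC mouse 13 was the highest of the 8 mice for 3 of 3 chains, and NBC mouse 5 was the lowest NBC mouse for each. The order of the placebo mice was not shared: mouse 14 was the lowest for Col6a1 and Col6a2 but the highest placebo mouse for Col6a3. The mean log2 ratios of Col6a1 to Col6a2 and of Col6a3 to Col6a1 differed between the groups by 0.057 and 0.11, with overlap. For the latter ratio the SD among placebo mice was 0.18.

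Type IV collagen is the network of basement membranes, and its chains did not read higher as a group. Col4a1 (1452035_at) read 75309, 67227, 88272 and 58693 in placebo mice 6, 8, 10 and 14, while NBC mice 5, 9, 11 and 13 read 82602, 78828, 78354 and 64037. The highest and the lowest values were both in placebo mice. Its log2 difference was 0.079 (SE 0.15), with a 95% interval of -0.27 to 0.43. Col4a2 (1424051_at) read 35466, 33128, 45714 and 34080 in placebo mice 6, 8, 10 and 14, while NBC mice 5, 9, 11 and 13 read 32316, 42358, 41164 and 33201. Both groups held low and high mice, and the log2 difference was 0.0079 (SE 0.15, 95% interval -0.34 to 0.35). The interval of Col4a1 includes the difference seen for Col1a1, and that of Col4a2 reaches nearly as far.

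Col4a1 and Col4a2 lie head to head on the genome and are read in opposite directions from neighbouring starts. Their windows (RefSeq, build GRCm38.p6) are chr8:11312777-11313076 on the minus strand for Col4a1 and chr8:11312555-11312854 on the plus strand for Col4a2, and they share 78 bases. Both are shown because the pair is transcribed from this one stretch, again with CCAAT boxes of either orientation in capitals.
Col4a1: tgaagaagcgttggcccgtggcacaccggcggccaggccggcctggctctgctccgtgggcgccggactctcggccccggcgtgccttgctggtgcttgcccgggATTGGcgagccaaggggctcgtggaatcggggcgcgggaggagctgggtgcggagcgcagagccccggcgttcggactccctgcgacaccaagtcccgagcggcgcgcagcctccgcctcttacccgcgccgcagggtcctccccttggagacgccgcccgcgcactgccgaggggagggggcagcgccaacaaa
Col4a2: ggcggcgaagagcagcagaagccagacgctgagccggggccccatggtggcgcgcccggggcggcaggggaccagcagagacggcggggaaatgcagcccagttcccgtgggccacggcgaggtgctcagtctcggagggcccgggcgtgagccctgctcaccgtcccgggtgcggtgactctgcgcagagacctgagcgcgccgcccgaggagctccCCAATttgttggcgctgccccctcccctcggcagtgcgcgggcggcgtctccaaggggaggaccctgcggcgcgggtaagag
The Col4a1 window holds an ATTGG that begins 145 bases before its start, and the Col4a2 window a CCAAT that begins 32 bases before its start. GGGCGG on either strand was found once and 3 times, and TATAA in neither.

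The log2 ratio of Col4a1 to Col4a2, centred over the 8 mice, lay between -0.21 (placebo mouse 14) and 0.36 (NBC mouse 5) and was 0.071 higher in NBC, within the spread of either group. Col4a5, whose chain occurs in specialised basement membranes, read 2317 to 2914 in placebo mice and 1474 to 3002 in NBC mice, with NBC mouse 5 the lowest and a log2 difference of -0.20 (SE 0.21), which was -0.00011 without that mouse. Col4a3 and Col4a4, chains best known from the kidney filter, read 52.8 to 331 and 55.5 to 272.5 in placebo mice and 37.5 to 174 and 48.9 to 450 in NBC mice. Most of these signals lay under the filter limit of 275, and both genes are described only. The log2 ratio of Col1a1 to Col4a1 was 0.28 higher in NBC mice, but NBC mouse 13 (0.70) made most of this and the groups overlapped, so a difference between type I and type IV chains is not shown.

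By their brightest probe sets, the collagens that decorate fibrils or form other networks lay higher in NBC in mean, each with overlap. Col15a1, a collagen of the basement membrane zone, read 6723, 8916, 11556 and 7351 in placebo mice 6, 8, 10 and 14, while NBC mice 5, 9, 11 and 13 read 9493, 9187, 12406 and 9203. Placebo mouse 10 and NBC mouse 11 stood apart above the rest of their groups. The log2 difference was 0.24 (SE 0.19).

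Col12a1, a fibril-associated collagen, followed the same mice with 1208, 1132, 1807 and 1032 in placebo mice 6, 8, 10 and 14, while NBC mice 5, 9, 11 and 13 read 1611, 1548, 2208 and 1535. Placebo mouse 10 was the only placebo mouse inside the NBC range, and the log2 difference was 0.42 (SE 0.20). Its second kept probe set, 1427391_a_at, gave -0.0022 (SE 0.19). Col16a1, also fibril-associated, read 1664 to 2894 in placebo and 2198 to 2984 in NBC mice (0.28, SE 0.19). Col8a1, a short-chain network collagen of vessel walls, read 661 to 777 in placebo and 715 to 1081 in NBC mice (0.34, SE 0.17), and its second kept probe set gave 0.44 (SE 0.18). Col18a1, the parent of endostatin, differed by 0.019 (SE 0.14). Its similarly bright second probe set, 1418237_s_at, gave -0.17 (SE 0.15). In this subgroup NBC mouse 11 was the highest of the 8 mice for 4 of 5 genes, against 0 of 5 for NBC mouse 13.

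**Figure D3:**
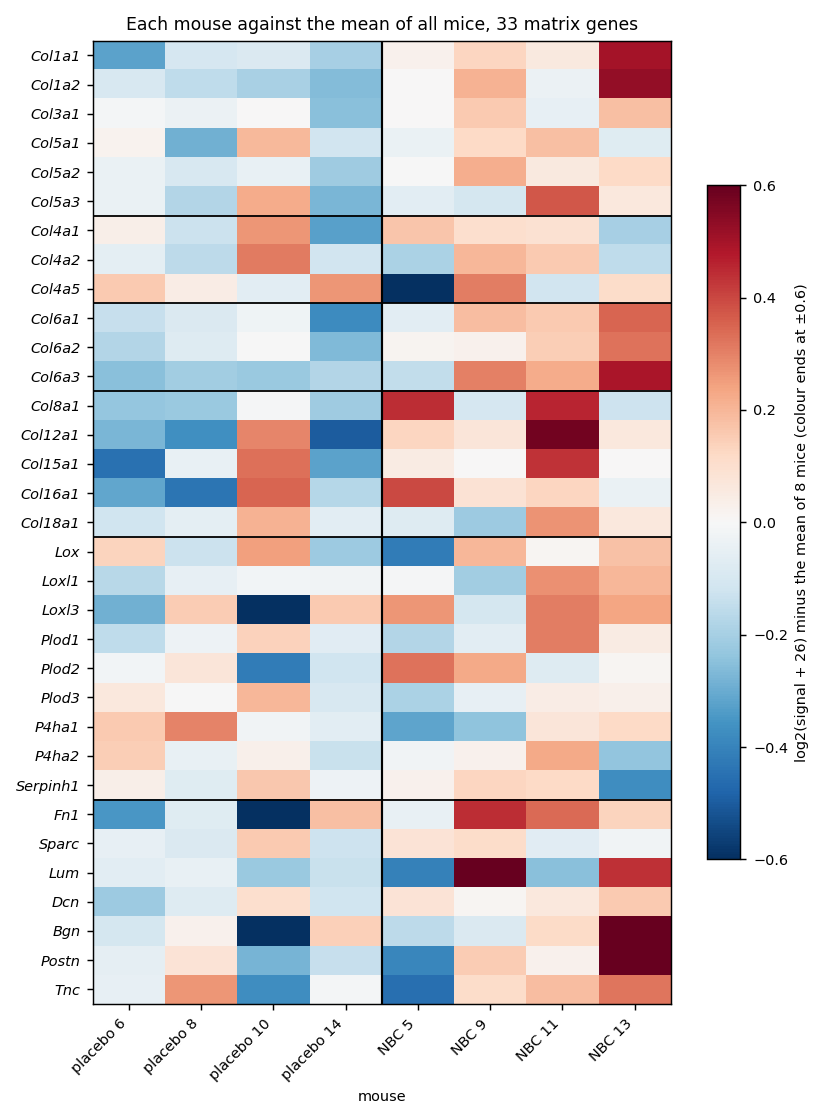
Deviation of each mouse (columns) from the mean of all 8 mice on the log2(signal + 26) scale for the 33 tested genes (rows), with lines between subgroups and between the groups of mice. NBC mouse 13 is darkest red for the type I and type VI chains and for Bgn and Postn, while NBC mouse 11 and placebo mouse 10 are red for Col12a1, Col15a1 and Col5a3.

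The enzymes that modify and crosslink collagen did not read higher together: 4 of 9 tested genes lay above 0, and the median log2 difference was -0.0022. The chaperone gene Serpinh1 (1450843_a_at), which encodes HSP47, read 26885, 24991, 29379 and 25698 in placebo mice 6, 8, 10 and 14, while NBC mice 5, 9, 11 and 13 read 26723.5, 28736, 28512 and 20251. NBC mouse 13, the highest for Col1a1, was the lowest of the 8 mice here. The log2 difference was -0.048 (SE 0.14, 95% interval -0.37 to 0.27). In the second probe set, 1456733_x_at, NBC mouse 13 read 19583, placebo mice 6 (19550) and 8 (18479) read less, and the difference was 0.17 (SE 0.15).

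Lox, the founding lysyl oxidase, read 16830, 14045, 18221 and 13160 in placebo mice 6, 8, 10 and 14, while NBC mice 5, 9, 11 and 13 read 11443.5, 17606, 15471 and 17312. Only NBC mouse 5 lay outside the placebo range, below it, and the log2 difference was -0.018 (SE 0.18). A second probe set of Lox (1448228_at) gave -0.48 (SE 0.33), with NBC mouse 5 at 4881 and NBC mouse 11 at 6884. The family members Loxl1 (0.13, SE 0.13) and Loxl3 (0.35, SE 0.21) had higher NBC means. Loxl3 was lowest in placebo mouse 10 (578, other placebo mice 789 to 1085), without which its difference was 0.17, and a dim second probe set of Loxl1 gave 0.55 (SE 0.23).

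The lysyl hydroxylases Plod1 (0.056, SE 0.14), Plod2 (0.24, SE 0.15) and Plod3 (-0.084, SE 0.12) and the catalytic prolyl hydroxylase subunits P4ha1 (-0.18, SE 0.15) and P4ha2 (-0.0022, SE 0.13) all overlapped. Plod2, which favours the crosslinks of scar tissue, read 1119 to 1580 in placebo and 1422 to 1890.5 in NBC mice, with a second probe set at -0.069 (SE 0.16). Both kept probe sets of P4ha1 lay below 0, the dim second one (1426519_at) at -0.60 (SE 0.33). That probe set was lowest in NBC mice 5 (203.5) and 11 (145) but highest of the 8 mice in NBC mouse 9 (528). The log2 ratio of Col1a1 to Serpinh1 was 0.40 higher in NBC mice and that of Col1a1 to Lox 0.37 higher, both with overlap. NBC mouse 13 stood at 0.87 in the former and the other NBC mice at -0.062 to -0.00066.

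All 7 tested glycoproteins and proteoglycans had log2 differences above 0, with a median of 0.20, and every one of them overlapped between the groups. Sparc, a collagen-binding protein of the matrix and the brightest of the 33 genes on the array (1416589_at), read 110501.5, 107666, 127502 and 104667 in placebo mice 6, 8, 10 and 14, while NBC mice 5, 9, 11 and 13 read 120955.5, 123370, 108899 and 112553. The NBC values all lay inside the placebo range, and the log2 difference was 0.051 (SE 0.11). Its second bright probe set, 1448392_at, gave -0.038 (SE 0.12).

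Fn1, which encodes fibronectin, the scaffold on which collagen fibrils are laid down, had the widest difference in this subgroup. It read 5954, 7223, 4881 and 8595 in placebo mice 6, 8, 10 and 14, while NBC mice 5, 9, 11 and 13 read 7357, 10331, 9612 and 8327. Placebo mouse 14 lay above NBC mice 5 and 13. The log2 difference was 0.44 (SE 0.19, unadjusted p = 0.0503), and a dim second probe set (1437218_at) gave 0.061 (SE 0.21).

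Bgn, which encodes biglycan, read 15985, 17535, 10756 and 19035 in placebo mice 6, 8, 10 and 14, while NBC mice 5, 9, 11 and 13 read 15434, 16202, 18655 and 28717. NBC mouse 13 was far above, and placebo mouse 10 far below, the others. The log2 difference was 0.31 (SE 0.24), its 3 kept probe sets gave 0.29 to 0.31, and it was 0.11 without NBC mouse 13 and 0.13 without placebo mouse 10.

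Postn, which encodes the crosslinking-associated protein periostin, read 23034 to 29616 in placebo mice and 21319, 31128, 28491 and 42520 in NBC mice 5, 9, 11 and 13. Its log2 difference was 0.20 (SE 0.20) but 0.027 without NBC mouse 13 and 0.36 without NBC mouse 5. Lum, which encodes the fibril-spacing proteoglycan lumican, was high in NBC mice 9 (18571) and 13 (15694) but below all placebo mice (9909 to 11222) in NBC mice 5 (8720) and 11 (9699). Its log2 difference of 0.23 (SE 0.24) was 0.042 without NBC mouse 9 and 0.12 without NBC mouse 13. Dcn, which encodes decorin (0.16, SE 0.11), and Tnc, which encodes tenascin C (0.086, SE 0.20), differed little. In NBC mouse 5 the genes Lum, Postn and Tnc were at their lowest of the 8 mice.

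The mice thus differed in which matrix genes stood high. Relative to the mean of the 8 mice, the median deviation over the 3 type VI chains was 0.35 in NBC mouse 13, 0.18 in mouse 9, 0.16 in mouse 11 and -0.061 in mouse 5, against -0.26 to -0.027 in placebo mice. For the glycoproteins it was 0.32 in NBC mouse 13 and -0.16 in NBC mouse 5, against -0.28 to -0.043 in placebo mice. Over all 33 genes the medians were -0.020, 0.11, 0.13 and 0.12 in NBC mice 5, 9, 11 and 13, and -0.13 to -0.0013 in placebo mice. NBC mouse 13 was the highest of the 8 mice for 10 genes and NBC mouse 11 for 9. NBC mouse 5 and placebo mouse 14 were the lowest for 9 genes each.

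A second look at each transcript came from other probe sets of the same genes. Of the 33 genes, 20 had more than 1 kept probe set, and in 13 of these all kept probe sets gave the same direction. The 7 others were Col12a1, Col18a1, Col5a1, Plod1, Plod2, Serpinh1 and Sparc. Every kept probe set of Col1a1, Col1a2, Col3a1, Col4a1, Col5a2, Col6a2, Col8a1, Loxl1, Fn1 and Bgn lay above 0, and every one of Col4a5, Lox and P4ha1 lay below. For Lox and P4ha1 the second kept probe set was lowest in NBC mice 5 and 11 and highest in NBC mouse 9. The second probe set gave 0.42 (SE 0.26) for Col1a1 and 0.44 (SE 0.18) for Col1a2. These dimmer probe sets of the type I chains overlapped between the groups, because NBC mouse 9 read 3557 for Col1a1 and NBC mouse 5 read 19820 for Col1a2.

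**Figure D4:**
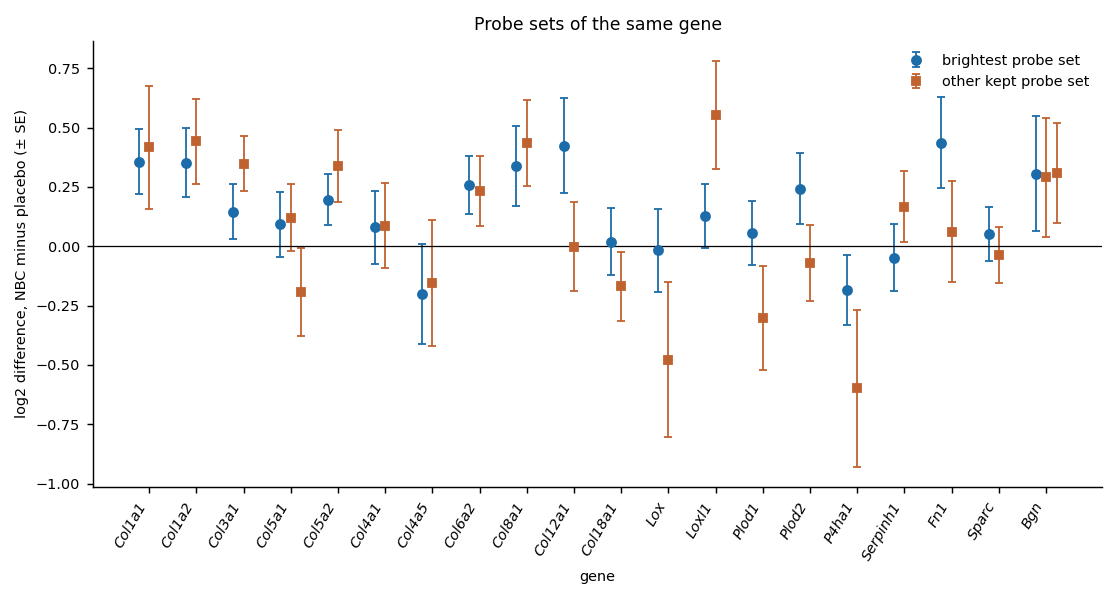
Log2 difference between NBC and placebo mice (y axis, with SE bars of the limma fit) for every kept probe set of the 20 genes that have several (x axis), with the brightest probe set as a circle and the others as squares. Col1a1, Col1a2, Col3a1, Col6a2 and Bgn lie above 0 with all their probe sets, as do Col4a1, Col5a2, Col8a1, Loxl1 and Fn1. By contrast, Lox spans -0.018 to -0.48 and Plod1 changes side.

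Genes of the same processes outside the 37 were examined as 7 lists, none of which held a gene that passed limma's adjusted threshold. Of the other collagen chains, 6 of 23 named genes were bright enough to test and 2 of these lay above 0. Col14a1, a fibril-associated collagen, read 1600, 2166, 1575 and 1765 in placebo mice 6, 8, 10 and 14, while NBC mice 5, 9, 11 and 13 read 2835, 2947, 3164 and 2825. It was the 1 of the 6 with an unadjusted p under 0.05 (16.7% beside 2.73% of all tested genes), with a log2 difference of 0.73 (SE 0.13). Col27a1, Col22a1 and Col23a1 differed by -0.12 to -0.13 with overlap.

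Of the other processing and secretion genes, 13 of 23 tested lay above 0, with a median of 0.025. Pcolce, which encodes the enhancer of the proteinase that trims procollagen, read 18997 to 21883 in placebo and 23466 to 30061 in NBC mice, without overlap (0.37, SE 0.12). The crosslinking transglutaminase Tgm2 differed by 0.43 (SE 0.13), with NBC mouse 11 (21059) inside the placebo range. Pcolce2 (0.41, SE 0.27) and Tango2 (-0.31, SE 0.15) overlapped. Whether Tango2, which is counted in this list, takes part in collagen secretion was not examined here. Pcolce and Tgm2 were the 2 genes of this list with an unadjusted p under 0.05 and higher in NBC (8.70% beside 2.73% of all tested genes).

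Laminins and other basement membrane genes had 6 of 14 above 0, with a median of -0.037. The laminin chain Lamb1 read 8435 to 9502 in placebo and 9990 to 11123 in NBC mice, without overlap (0.24, SE 0.10), and was the 1 of 14 under that p (7.14%). Lama2 (0.34, SE 0.18), Smoc2 (0.39, SE 0.22) and Lamc3 (-1.02, SE 0.50) overlapped. Elastic fibre and microfibril genes had 11 of 13 above 0 and a median of 0.098, led by p by Emilin2 (0.40, SE 0.20), Ltbp3 (0.42, SE 0.23), Mfap5 (0.27, SE 0.17) and Mfap2 (0.26, SE 0.20), all with overlap and 0 of 13 under that p.

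Of the other leucine-rich proteoglycans and fibril-surface proteins, 10 of 13 lay above 0, with a median of 0.18. Tnxb, which encodes tenascin X, read 4319 to 5398 in placebo and 5581 to 7483.5 in NBC mice (0.44, SE 0.13). Ogn, which encodes osteoglycin, read 5231 to 5861 and 5878 to 8725 (0.34, SE 0.14). Both were without overlap, that of Ogn by a narrow margin, and they were the 2 of 13 under an unadjusted p of 0.05 (15.4% beside 2.73%), while Ecm1 (0.43, SE 0.22) and Tgfbi (0.18, SE 0.11) overlapped. Collagen receptors had 5 of 7 above 0 (median 0.025), among them Lair1 (0.53, SE 0.33), Adgrg1 (0.13, SE 0.20) and Ddr1 (0.066, SE 0.27), and the integrin subunit Itgb1 below (-0.33, SE 0.24). Genes of the TGF-beta pathway, a main inducer of collagen synthesis, had 11 of 14 above 0 (78.6% beside 48.5% of all tested genes) with a median of 0.074. Of these 14, 0 had an unadjusted p under 0.05, and the lowest p values were those of Skil (0.30, SE 0.17), Smad4 (0.24, SE 0.16), Smad2 (-0.22, SE 0.15) and Tgfb2 (0.35, SE 0.26). The count above 0 takes no account of whether a gene promotes or inhibits the pathway, so it gives no direction of it. The activity of the pathway was not tested.

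Of the adipocyte markers that define the labelled tissue, Fabp4 averaged 133954 ± 16351 and Adipoq 98493 ± 10389 in placebo mice (SD, n = 4 each). All 11 tested fibroblast and progenitor markers lay above 0, with a median log2 difference of 0.34. Of these, 4 had an unadjusted p under 0.05 (36.4% beside 2.73% of all tested genes) and 3 had no overlap (27.3% beside 1.70%). Pi16 read 1084 to 2392.5 in placebo and 3743 to 8007 in NBC mice, whose mean was 3.12 times as high. On the log2 scale Pdgfrb was 0.57 higher (SE 0.13) and Cd34 0.34 higher (SE 0.16), also without overlap, and Pi16, Pdgfrb and Cd34 were named after their values were seen. The summed signal of the list, most of it from Gsn (0.040, SE 0.13) and Dpt (0.037, SE 0.18), overlapped (190159 to 225238 in placebo, 216927 to 235907 in NBC mice). All 9 adipocyte markers lay below 0, with a median of -0.14 and sums of 501326 to 602181 in placebo and 496593 to 558350 in NBC mice. All 12 macrophage markers lay above 0, beside 48.5% of all tested genes, with a median of 0.21 and among them the bright Lyz2 and Csf1r. An unadjusted p under 0.05 was reached by 2 of the 12, higher in NBC (16.7% beside 2.73% of all tested genes). The summed macrophage signal was highest in NBC mouse 13 (250920), against 131095 to 186260 in placebo mice and 172541 to 190116 in the other NBC mice. The part of these cell types in the matrix values was not tested.

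The sum of 12 skeletal muscle markers was 5637 to 23972 among placebo mice. It reached 151748 to 170148 for NBC mice 5, 11 and 13, but 18597 for NBC mouse 9. All 12 lay above 0, with a median log2 difference of 3.77. Of these markers, 11 had an unadjusted p under 0.05, higher in NBC (91.7% beside 2.73% of all tested genes). Their part in the matrix values was not tested. Endothelial markers had 4 of 10 above 0, and their sum was 33186 to 41914.5 in placebo and 27034 to 41894.5 in NBC mice, lowest in NBC mouse 13. Smooth muscle and pericyte markers had 6 of 7 above 0, and their sum was highest in placebo mouse 10 (98528), beside 58333 to 87351 in NBC mice. Of 8 skin markers 5 lay below the filter limit, and 6 of 7 lymphocyte markers lay below 0 with sums of 9710 to 16214 in placebo and 7522 to 20525 in NBC mice. Most of each lymphocyte sum came from Ptprc (0.26, SE 0.27). Cd79a read 925 to 1287 in placebo mice and 1463.5, 1587, 79 and 251 in NBC mice 5, 9, 11 and 13. In NBC mice 11 and 13, Cd79b, Cd3g, Ms4a1 and Cd2 also lay below all placebo mice, and Cd3e did so only in NBC mouse 13. The part of these genes in the matrix values was not tested. The ratio of the 3′ to the 5′ probe set of Gapdh, which rises as RNA degrades, was 0.92 to 1.04 in placebo mice. In NBC mice 5, 9, 11 and 13 it was 1.47, 0.84, 1.28 and 1.11. The same ratio of Actb was 1.515 to 1.745 in placebo mice and 2.1, 1.515, 1.82 and 1.557 in these NBC mice. The part of RNA quality in the matrix values was not tested either.

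**Figure D5:**
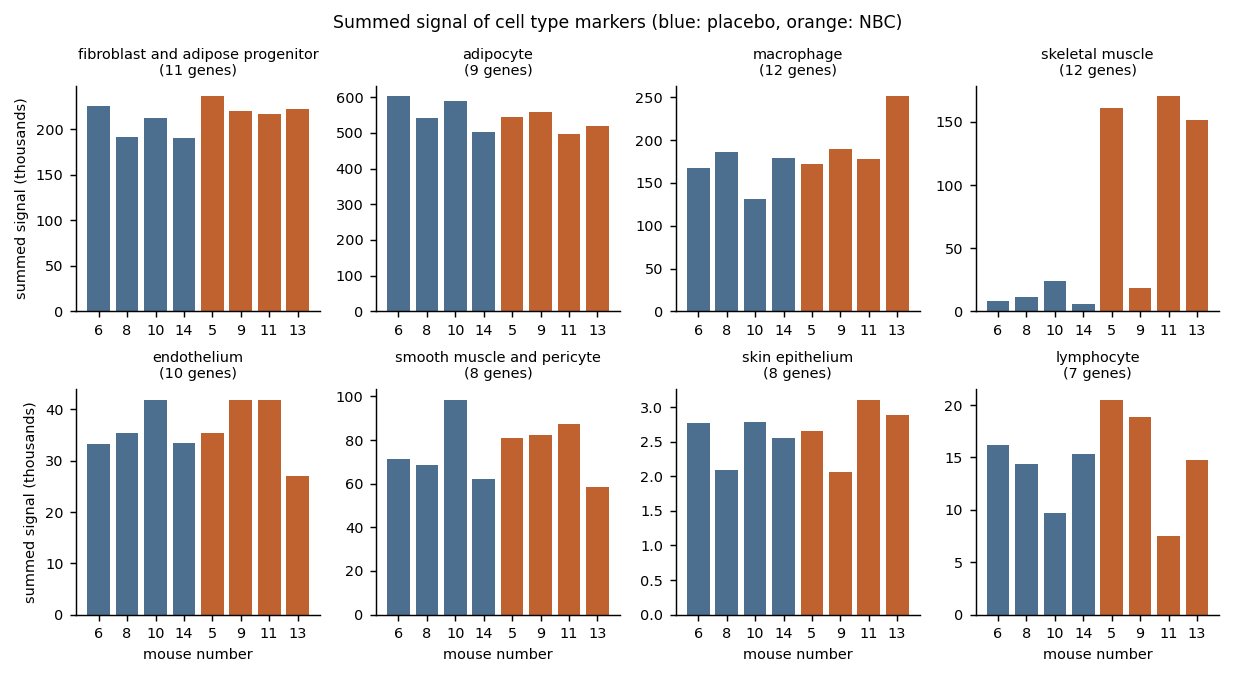
Summed signal (y axis, from 0, scaled as the axis label states) of the named markers of 8 cell types in each mouse (x axis, mouse number), blue for placebo and orange for NBC. Skeletal muscle markers stand high in NBC mice 5, 11 and 13 but not in NBC mouse 9, and macrophage markers are highest in NBC mouse 13.

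The number of mice limits these comparisons, and single mice moved the counts. The count of 4 genes at an unadjusted p under 0.05 was 1 without placebo mouse 6, 2 without placebo mouse 8, placebo mouse 14 or NBC mouse 13, and 6 without placebo mouse 10. The share of all tested genes under that p and higher in NBC, 2.73% with all mice, also moved. It was 2.18%, 2.11% and 2.5% without placebo mice 6, 8 and 14, 2.92% without NBC mouse 13 and 2.99% without placebo mouse 10. Col6a3 was under that p without any 1 of the 8 mice, with differences from 0.34 (without NBC mouse 13) to 0.55 (without NBC mouse 5). Among genes without an unadjusted p under 0.05, Col3a1 differed by 0.087 without placebo mouse 14, Col15a1 by 0.13 without placebo mouse 6 and 0.14 without NBC mouse 11, Col16a1 by 0.19 without placebo mouse 8, and Plod2 by 0.14 without placebo mouse 10.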

How the data were processed

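Per the labels, biotin-labelled total RNA of each mouse's subcutaneous fat was hybridised. The authors deposited linear signal intensities, for which the submitters' processing notes name MAS5 without a version; this method leaves dim signals noisy. No scaling was added. Of 45101 probe sets, 64 were controls and stayed out. The platform annotation gave exactly 1 gene to 34945 probe sets. Analysis used log2(signal + 26), which understates differences of dim genes, and probe sets whose mean reached the median of all (a signal of 275). Groups were compared with limma 3.58.1 in R 4.3.3, without covariates, with p adjusted by Benjamini-Hochberg over all 22519 probe sets kept (threshold 0.05). The fit was tested on simulated data.

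Groups and mouse numbers follow the sample titles. No array was a copy of another, with at most 0.0777% equal signals between 2 arrays. The labels describe separate mice. The 37 genes, the lists and the tests were chosen with earlier results of these data known. Values for every mouse are given for genes without overlap or with an unadjusted p under 0.05 and for the brightest gene of each of 6 subgroups. Other genes were given in the same way where single mice set the difference, which was decided after their values were seen. Of the other lists, the 4 genes with the smallest p are named. Alternatives changed the pseudocount, filter, normalization, test, probe set rule and mice.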

Additional observations from a re-analysis of the deposited data

Results flagged for a closer look

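Within a group of 4 mice, 1 mouse stood apart from the other 3 by a gap, relative to the group's range, above Dixon's 95% critical value in 5 of 66 groups examined (33 genes in 2 groups), or 7.58%, where chance gives about 1 in 20. Col3a1 was low in placebo mouse 14 (72620, others 84376 to 86496). Col8a1 was high in placebo mouse 10 (777, others 661 to 671). Col12a1 was high in NBC mouse 11 (2208, others 1535 to 1611), as was Col15a1 (12406, others 9187 to 9493). Loxl3 was low in NBC mouse 9 (898.5, others 1148 to 1207).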

How the results depend on the processing

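Each of 8 mice was left out in turn and 9 other settings were tried. No paired analysis was possible because the groups share no mouse number. The 33 genes gave 0 adjusted calls under all 17 alternatives. Over all probe sets there were 0 calls in all settings run except without NBC mouse 9, where there were 18 (range 0 to 18 with 1 mouse left out), none of them among the 33 genes. The count of genes at an unadjusted p under 0.05, 4 as reported, was 1 with no filter on dim probe sets, 7 with a stricter filter on dim probe sets, 8 with limma's intensity trend and robust fit together, 7 with array weights, 8 with the mean of a gene's kept probe sets, and 1 to 6 with 1 mouse left out. The share of all tested genes under that p and higher in NBC, 2.73% as reported, moved as well. For the settings in the order just named it was 2.23%, 3.29%, 3.15%, 3.73% and 2.91%, and 2.11% to 3.76% with 1 mouse left out. The count above 0 was 24 to 29, beside 45.6% to 51.9% of all tested genes. The median over the 33 genes was 0.13 to 0.20 in all alternatives. The median of the fibrillar chains was 0.26 with the mean of kept probe sets, against 0.17. With 1 mouse left out, the enzyme median ranged from -0.047 to 0.12 and the glycoprotein median from 0.11 to 0.36.

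Of the 33 genes, 25 kept their sign throughout, among them Col4a5, which was -0.00011 without NBC mouse 5. Signs turned for Col4a2 with quantile normalization (-0.0032), P4ha2 with arrays centred on their medians (0.012) or array weights (0.047), and, with the mean of kept probe sets, for Col18a1 (-0.075), Plod1 (-0.12) and Serpinh1 (0.059). With 1 mouse left out the ranges crossed 0 for Col4a1 (-0.016 to 0.18), Col4a2 (-0.057 to 0.11), Col18a1 (-0.069 to 0.095), Lox (-0.094 to 0.12), Plod1 (-0.036 to 0.12), P4ha2 (-0.078 to 0.076), Serpinh1 (-0.10 to 0.068) and Tnc (-0.025 to 0.25). The cause was not tested. The number of arrays and, for dim genes, signal over background limit the precision.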
